A study of Oryza sativa with 18 samples.

Results

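The genes described here are annotated as encoding proteins of the 60S subunit, the large subunit of the cytosolic ribosome. A gene was a member if its description in the deposited rice gene table held the words "60S ribosomal protein" or "60S acidic ribosomal protein", in capitals or not. That rule gave 80 of the 55986 loci in the table. Of these, 77 are described as plain 60S proteins and 3 as proteins of a mitochondrial ribosome (L5 once and L16 at 2 loci). Together the 80 loci carry 29 protein labels, and 75 have a RAP identifier. The rule itself reads descriptions and no measured value. Large-subunit genes whose descriptions lack these words are not members, so the 80 loci need not cover the whole subunit.

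The ribosome is the machine that translates mRNA into protein. Its large subunit holds the site where peptide bonds form, the tunnel through which the new chain leaves, and a flexible stalk of acidic proteins that recruits the elongation factors. In plants most of its proteins are encoded by small families of near-identical genes, whose transcripts tend to rise and fall together with growth. Ribosomes are also a large store of phosphorus in leaves, because their RNA holds much of the phosphorus of a leaf's nucleic acids.

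The series profiled rice flag leaves, the last leaf below the panicle and a main source of sugar for the filling grain, by RNA sequencing. Its 6 groups of 3 libraries were Ospho1;2-Ko1 (Ko1), OsPHO1;2-OE (OE) and wild type (WT), each at 15DAF and at 5DAF, which is read here as days after flowering. OsPHO1;2 encodes a phosphate exporter; Ko1 is labelled as a mutant of it and OE as an overexpression line. Per the labels, all plants grew in a paddy field under normal conditions. The labels give 1 line of each kind, so an effect of the altered gene and one of the line's own background cannot be told apart. Neither the lesion in Ko1 nor the promoter that drives OsPHO1;2 in OE is stated in the labels. Whether each library had its own plants is not stated, so the p-values reflect the spread among libraries, which may be technical.

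Each library held between 13223554 and 18264909 counts. Levels of 1 gene are given as CPM, counts relative to edgeR's TMM-scaled library size, and levels set between genes as the deposited FPKM, which also divide by gene length. OsPHO1;2 itself (LOC_Os02g56510) read 18, 4.75 and 29.5 CPM in OE leaves, against 1.78, 2.58 and 3.25 CPM in WT leaves at 15DAF (log2 fold change 2.77, edgeR adjusted p = 0.122). In Ko1 leaves it read 6.10, 6.14 and 6.07 CPM at that stage, above all 3 WT libraries (log2 fold change 1.255, SE 0.507, edgeR adjusted p = 0.114). At 5DAF the log2 fold change of Ko1 over WT was -0.045 (SE 0.525, edgeR adjusted p = 0.973). Neither passed, so the Ko1 label could not be checked from the counts of this transcript. Leaf mesophyll markers (chlorophyll-binding proteins and Rubisco small subunits, 21 rows, 0 of them at 0) summed to between 13920 and 46594 CPM in the 18 libraries, and developing grain markers (49 rows, 19 of them at 0) to between 11.49 and 28 CPM. The library labelled WT 5DAF replicate 3 stood apart from the other WT 5DAF libraries, with 29601 CPM of mesophyll markers against 44232 and 46594 CPM. For comparisons that use it, sums and medians, and calls that changed, are given with and without it.

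The 80 loci lie on all the rice chromosomes. Chromosome 5 holds 12, chromosomes 1 and 7 hold 11 each, chromosome 8 holds 9, and chromosome 10 the fewest with 2. A few lie close together. The L35a-3 gene LOC_Os05g48310 and the L37a gene LOC_Os05g48320 are 2.22 kb apart, and on both chromosome 1 and chromosome 5 an L18a gene neighbours an L18a-1 gene, at 2.90 and 3.28 kb. On chromosome 9 the L32 genes LOC_Os09g32500, LOC_Os09g32520 and LOC_Os09g32532 lie between 4.11 and 17.84 kb from each other. The genome build of these coordinates is not given in the sources used here. Copies of the same protein may share reads, and whether counting used the strand is not stated, so the value of any single copy is less certain than that of its family.

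Of the 80 members, 69 had enough counts to be tested and 11 did not. Among those 11, 7 had 0 counts in all 18 libraries. They are 5 L44 genes on chromosome 7 (LOC_Os07g33860, LOC_Os07g33898, LOC_Os07g33915, LOC_Os07g33921 and LOC_Os07g33997) between bases 20257481 and 20312111, and the acidic protein genes LOC_Os07g14750 and LOC_Os07g28710. L44, which sits near the exit site for spent tRNA, was counted from 1 other member, LOC_Os07g26740. The acidic protein gene LOC_Os08g15180 had 1 count in all, in an OE 15DAF library. The 3 mitochondrial loci were also too low to test. LOC_Os09g08890 (L5) had 43 counts in all, 22 of them in Ko1 5DAF replicate 3, while LOC_Os12g34128 and LOC_Os12g34056 (both L16) had 36 and 7. Every test below is therefore on genes described as plain 60S proteins. The description is all the table offers on what they encode, so whether the 4 loci labelled L18a-1 make ribosomal proteins or only share a domain with L18a cannot be told from it.

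These are highly transcribed genes. The median tested member had a mean of 60.2 FPKM over the 18 libraries, against 7.86 FPKM for the median of all 20437 genes tested, and 19 members were above 100 FPKM while 5 were under 10 FPKM. The highest were LOC_Os08g02340, an acidic stalk protein gene with 246 FPKM, LOC_Os05g37330, another acidic stalk gene with 239.5 FPKM, LOC_Os03g21940 (L19-3) with 207 FPKM, LOC_Os08g41300 (L32) with 200.2 FPKM and LOC_Os10g32820 (L21-2) with 193 FPKM. The lowest tested were the P0 gene LOC_Os11g04070 with 1.53 FPKM, the L28-1 gene LOC_Os05g46430 with 2.37 FPKM and the acidic gene LOC_Os02g32760 with 5.40 FPKM. The stalk thus supplied both the highest and the lowest of the tested levels. The 10 highest members together held 37.1% of the members' summed FPKM.

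Summed over all members, the 60S genes took 0.371, 0.304 and 0.347% of all counts in the Ko1 libraries at 15DAF, 0.489, 0.494 and 0.534% in the OE libraries, and 0.483, 0.435 and 0.496% in the WT libraries. The Ko1 libraries lay below every other library at that stage. Their mean was 0.341 ± 0.0337% (SD, n = 3), against 0.471 ± 0.0318% in WT leaves (SD, n = 3), a ratio of 0.723. The OE mean was 0.506 ± 0.0245% (SD, n = 3), a ratio of 1.07 to WT, and those libraries overlapped the WT ones. At 5DAF the shares were 0.446, 0.514 and 0.477% in Ko1, 0.429, 0.437 and 0.520% in OE and 0.431, 0.477 and 0.590% in WT. All groups overlapped there, and the highest of the 18 libraries was the one labelled WT 5DAF replicate 3. The WT 5DAF mean was 0.500 ± 0.0819% (SD, n = 3) with that library and 0.454 ± 0.0322% (SD, n = 2) without it. The ratio of these shares to WT at 5DAF was 0.959 in Ko1 and 0.925 in OE with it, and 1.05 in Ko1 and 1.02 in OE without it. Both directions of the shares thus turned on that library. Between the stages, the ratio of 15DAF to 5DAF was 0.711 in Ko1, 1.09 in OE and 0.944 in WT, and the WT ratio was 1.04 without that library. On TMM-scaled CPM, a scaling tried after the data were seen, these stage ratios were 0.710 in Ko1, 0.944 in OE and 0.890 in WT, so the OE direction turned on the scaling as well. The WT 5DAF mean on that scaling was 5179.9 CPM, and 5006.4 CPM without WT 5DAF replicate 3. Both Ko1 at 5DAF (4621.5 CPM) and WT at 15DAF (4608.2 CPM) lay below either value, so these 2 directions did not turn there. The OE 5DAF mean of 5120.3 CPM lay between the 2 WT values. The Ko1 ratios at 15DAF and between stages stayed between 0.680 and 0.761 under every scaling tried and without any single library. Because leaves were sequenced whole, fewer cells of 1 type and less RNA per cell cannot be told apart. The sums were chosen with earlier results in view and carry no test.

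**Figure D1:**
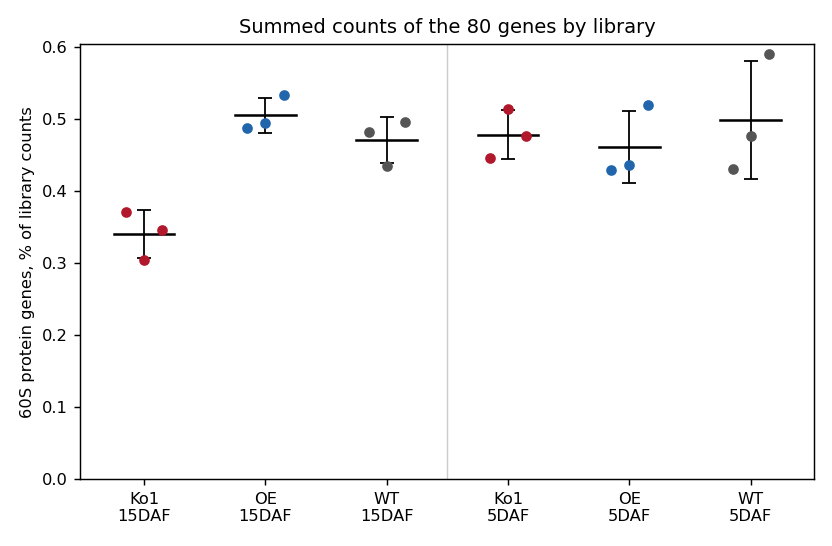
Share of all counts (percent, vertical axis) taken by the summed 60S genes in each library, one point per library, with group means and SD bars, for Ko1, OE and WT at 15DAF and 5DAF. The 3 Ko1 libraries at 15DAF lie between 0.304 and 0.371%, below all 15 others.

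At 15DAF, Ko1 leaves held less transcript of many 60S genes than WT leaves. By edgeR's quasi-likelihood test, with p-values adjusted by Benjamini-Hochberg over 20437 genes and 0.05 as the threshold, 24 of the 69 tested members were lower in Ko1 and 0 higher. Of all genes tested, 4.43% were lower and 6.53% higher in this comparison. The members' median log2 fold change was -0.44, and 62 of the 69 lay below 0, whereas the median of all tested genes lay between -0.02 and 0.04 in every comparison of this report. The 24 that fell did so by log2 0.41 to 0.86 (-0.86 to -0.41). In 42 members all 3 Ko1 libraries lay below all 3 WT libraries, and in 2 members above them, against 19% and 18.7% of all genes. The 24 included genes of the stalk, of the tunnel mouth and of other parts of the subunit.

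The count of 24 depended on the libraries used. Leaving out WT 15DAF replicate 1, 2 or 3 left 11, 15 or 9 members lower, and leaving out Ko1 15DAF replicate 1, 2 or 3 left 16, 17 or 15. No member was higher in those 6 fits. Of the 24, 9 were called in each of the 6 fits: the L31 gene LOC_Os02g48660, the L28-1 gene LOC_Os02g57540, both L19-3 genes, the L7 genes LOC_Os04g51630 and LOC_Os08g13690, the L18-3 gene LOC_Os05g06310, the P0 gene LOC_Os08g03640 and the acidic gene LOC_Os05g37330. Another 5 were called in none of the 6: LOC_Os01g09510 (acidic), LOC_Os03g04750 (L21-2), LOC_Os03g22340 (L22-2), LOC_Os05g28750 (L29-2) and LOC_Os07g42170 (no protein number). DESeq2 called 33 lower and 1 higher. That 1 was the L18a-1 gene LOC_Os06g25294. The shares of all genes called, here and below, are those of edgeR's fit on all 18 libraries. They are not the shares under DESeq2 or in the fits without a library.

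**Figure D2:**
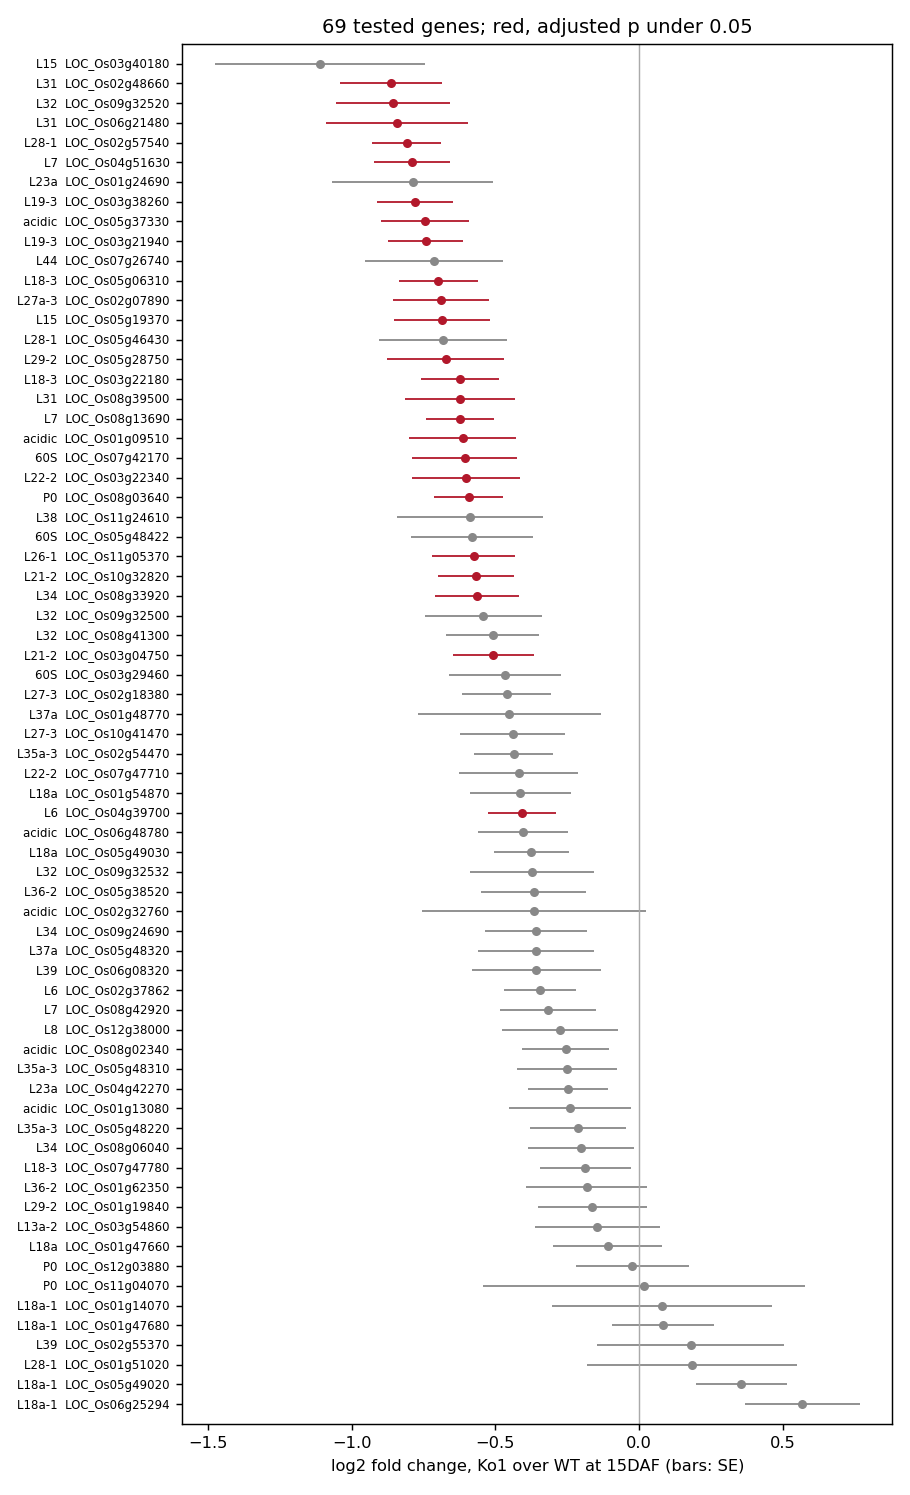
Log2 fold change of Ko1 over WT at 15DAF (horizontal axis) for each of the 69 tested 60S genes, with SE bars, from edgeR's fit. Red points passed an adjusted p under 0.05 and grey points did not. All 24 called genes lie left of 0, and the 4 L18a-1 genes lie right of it.

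The stalk recruits elongation factors to the ribosome: P0 anchors it to the subunit body, and acidic proteins of the P1 and P2 type form its arms. The rule gives 9 tested stalk genes, and 3 of them fell in Ko1 leaves at 15DAF. The main P0 gene LOC_Os08g03640 read 163, 166 and 167 CPM in Ko1, against 262, 224 and 263 CPM in WT (log2 fold change -0.59, SE 0.12, edgeR adjusted p = 0.00595). Every Ko1 library lay well under every WT library. OE libraries read 275, 251 and 263 CPM, within or just above the WT values.

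The acidic gene LOC_Os05g37330 read 140.2, 109.7 and 133 CPM in Ko1, against 201, 198 and 243 CPM in WT (log2 fold change -0.75, SE 0.15, edgeR adjusted p = 0.00627). The acidic gene LOC_Os01g09510 read 42.8, 27.2 and 41.4 CPM in Ko1 and 59.5, 52 and 59.2 CPM in WT (log2 fold change -0.61, SE 0.19, edgeR adjusted p = 0.0436). Neither overlapped between the groups. The most abundant acidic gene, LOC_Os08g02340, read 217, 183 and 193 CPM in Ko1 and 230.2, 213 and 264 CPM in WT, where 1 Ko1 library overlapped the WT range, and it did not pass (log2 fold change -0.26, SE 0.15, edgeR adjusted p = 0.27). LOC_Os06g48780, LOC_Os01g13080 and LOC_Os02g32760 had log2 fold changes of -0.40, -0.24 and -0.37 and did not pass either (edgeR adjusted p = 0.0963, 0.48 and 0.57). The 2 minor P0 genes stood near 0. LOC_Os12g03880 averaged 15.4 ± 3.18 CPM in Ko1 and 15.7 ± 2.04 CPM in WT, and LOC_Os11g04070 averaged 1.73 ± 0.561 CPM in Ko1 and 1.71 ± 0.434 CPM in WT (SD, n = 3 each).

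Around the mouth of the peptide tunnel lie L19, L23a, L26, L31 and L39, which meet the new chain and the factors that sort it. Of the 10 tested members for these proteins, 6 fell, and the median log2 fold change of the 10 was -0.68. The L31 gene LOC_Os02g48660 read 67.9, 42.3 and 55.6 CPM in Ko1, against 99.5, 89.6 and 112 CPM in WT (log2 fold change -0.86, SE 0.18, edgeR adjusted p = 0.00635). All 3 L31 genes fell. LOC_Os06g21480 read 8.68, 5.63 and 10.8 CPM in Ko1 and 15.4, 15.1 and 14.6 CPM in WT (log2 fold change -0.84, SE 0.25, edgeR adjusted p = 0.037), and LOC_Os08g39500 read 25.5, 17.2 and 17.8 CPM in Ko1 and 29.998, 26 and 37.2 CPM in WT (log2 fold change -0.62, SE 0.19, edgeR adjusted p = 0.045). In each of the 3 genes the highest Ko1 library lay below the lowest WT library, although LOC_Os06g21480 and LOC_Os08g39500 each kept the call in only 1 of the 6 fits without a library (largest edgeR adjusted p = 0.113 and 0.197). LOC_Os08g39500 also lost it with a replicate block.

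Both L19-3 genes fell as well; L19 spans to the small subunit as a bridge between the subunits. LOC_Os03g38260 read 66.3, 48.5 and 60.3 CPM in Ko1, against 98.5, 95.5 and 107 CPM in WT (log2 fold change -0.78, SE 0.13, edgeR adjusted p = 0.00173). LOC_Os03g21940, the third most abundant member, read 171, 139 and 162 CPM in Ko1, against 266, 247 and 275 CPM in WT (log2 fold change -0.74, SE 0.13, edgeR adjusted p = 0.00252). The 2 copies moved by nearly the same amount. The single L26-1 gene LOC_Os11g05370 read 33.9, 41 and 31.1 CPM in Ko1 and 54.1, 50.5 and 53.3 CPM in WT (log2 fold change -0.58, SE 0.14, edgeR adjusted p = 0.0178), and passed in 1 of the 6 fits without a library.

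L23a, a docking point for the factors that receive the nascent chain, had 2 tested copies, and neither passed in the fit of all groups. LOC_Os01g24690 read 37.5, 38.3 and 43.7 CPM in Ko1 and 69.9, 67.7 and 68.6 CPM in WT, with no overlap, yet did not pass (log2 fold change -0.79, SE 0.28, edgeR adjusted p = 0.0758). It passed by DESeq2 (adjusted p = 0.0489) and when only the groups compared were fitted (edgeR adjusted p = 0.00594). In OE leaves the same gene ranged over 61.8, 31.5 and 68.3 CPM. LOC_Os04g42270, the larger copy, read 95.2, 79.2 and 90.6 CPM in Ko1 and 109.6, 98.6 and 106 CPM in WT, also with no overlap (log2 fold change -0.25, SE 0.14, edgeR adjusted p = 0.253). The difference between the copies was not tested. For L39, the smallest of these proteins, LOC_Os06g08320 had a log2 fold change of -0.36 and LOC_Os02g55370 one of 0.18 (edgeR adjusted p = 0.308 and 0.753).

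Among the members for other proteins of the subunit, 15 of 46 tested genes fell in Ko1 leaves at 15DAF. L28, a protein that budding yeast lacks and whose loss in Arabidopsis worsens the leaf polarity defects of other mutants, had the smallest adjusted p of all members in this comparison. Its main gene LOC_Os02g57540 (chromosome 2, 35256139 to 35258235) read 46.5, 38.6 and 44.6 CPM in Ko1, 78.8, 88 and 85.6 CPM in OE and 77.2, 77.4 and 72.9 CPM in WT (log2 fold change -0.81, SE 0.12, edgeR adjusted p = 0.000528 for Ko1 over WT). Ko1 held 0.571 times the WT level. The low Ko1 values stood clear of both other genotypes, and the call held in each of the 6 fits without a library.

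L7, a conserved protein of the subunit body, is encoded by 3 tested genes, of which 2 fell. LOC_Os04g51630 read 50.9, 52.3 and 62.4 CPM in Ko1, against 99.3, 91.9 and 95.4 CPM in WT (log2 fold change -0.79, SE 0.13, edgeR adjusted p = 0.00156). LOC_Os08g13690 read 98.9, 83.3 and 95.4 CPM in Ko1, against 141, 137 and 150.1 CPM in WT (log2 fold change -0.62, SE 0.12, edgeR adjusted p = 0.00401). Both stood far below WT in all 3 libraries. The third, LOC_Os08g42920, did not pass (log2 fold change -0.32, SE 0.17, edgeR adjusted p = 0.219).

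L32 has 4 tested genes, and 1 of them fell. LOC_Os09g32520 read 18.9, 11.2 and 14.9 CPM in Ko1 and 28.1, 25.4 and 28.2 CPM in WT (log2 fold change -0.86, SE 0.20, edgeR adjusted p = 0.0129), and lost its call without WT 15DAF replicate 1 or 3 (largest adjusted p = 0.0561 by edgeR). The most abundant L32 gene, LOC_Os08g41300, read 105, 87.1 and 116 CPM in Ko1 and 152, 141 and 147 CPM in WT, without overlap, and lay just outside the threshold (log2 fold change -0.51, SE 0.16, edgeR adjusted p = 0.0524). L27a is another protein tied to leaf shape in Arabidopsis. The 1 member labelled L27a-3, LOC_Os02g07890, read 33.4, 21.8 and 28.7 CPM in Ko1 and 44.2, 38.9 and 52.2 CPM in WT (log2 fold change -0.69, SE 0.17, edgeR adjusted p = 0.0166).

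The largest difference in size among all members did not pass. LOC_Os03g40180 (L15), named after its values were seen, read 24.7, 40.04 and 26.6 CPM in Ko1, 87, 88.8 and 91.4 CPM in OE and 81.8, 68.8 and 46.8 CPM in WT, with log2 fold change -1.11, SE 0.37, edgeR adjusted p = 0.0588 for Ko1 over WT. Its WT libraries spread widely, and it passed by DESeq2 (adjusted p = 0.0252). The other L15 gene, LOC_Os05g19370, passed (log2 fold change -0.69, SE 0.17, edgeR adjusted p = 0.0158).

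The 4 L18a-1 genes lay above 0, as did 3 others of the 69, and none passed; they too were picked out after their values were seen. Their log2 fold changes were 0.08, 0.08, 0.36 and 0.57, against -0.11, -0.41 and -0.38 for the 3 genes labelled L18a. LOC_Os06g25294 read 24.8, 22.3 and 28.9 CPM in Ko1, 16.5, 16.8 and 18.8 CPM in OE and 16.2, 15.3 and 19.7 CPM in WT, so all Ko1 libraries were the higher ones (log2 fold change 0.57, SE 0.20, edgeR adjusted p = 0.0748 for Ko1 over WT). It passed by DESeq2 and without WT 5DAF replicate 3 (edgeR adjusted p = 0.0383 in that fit).

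**Figure D3:**
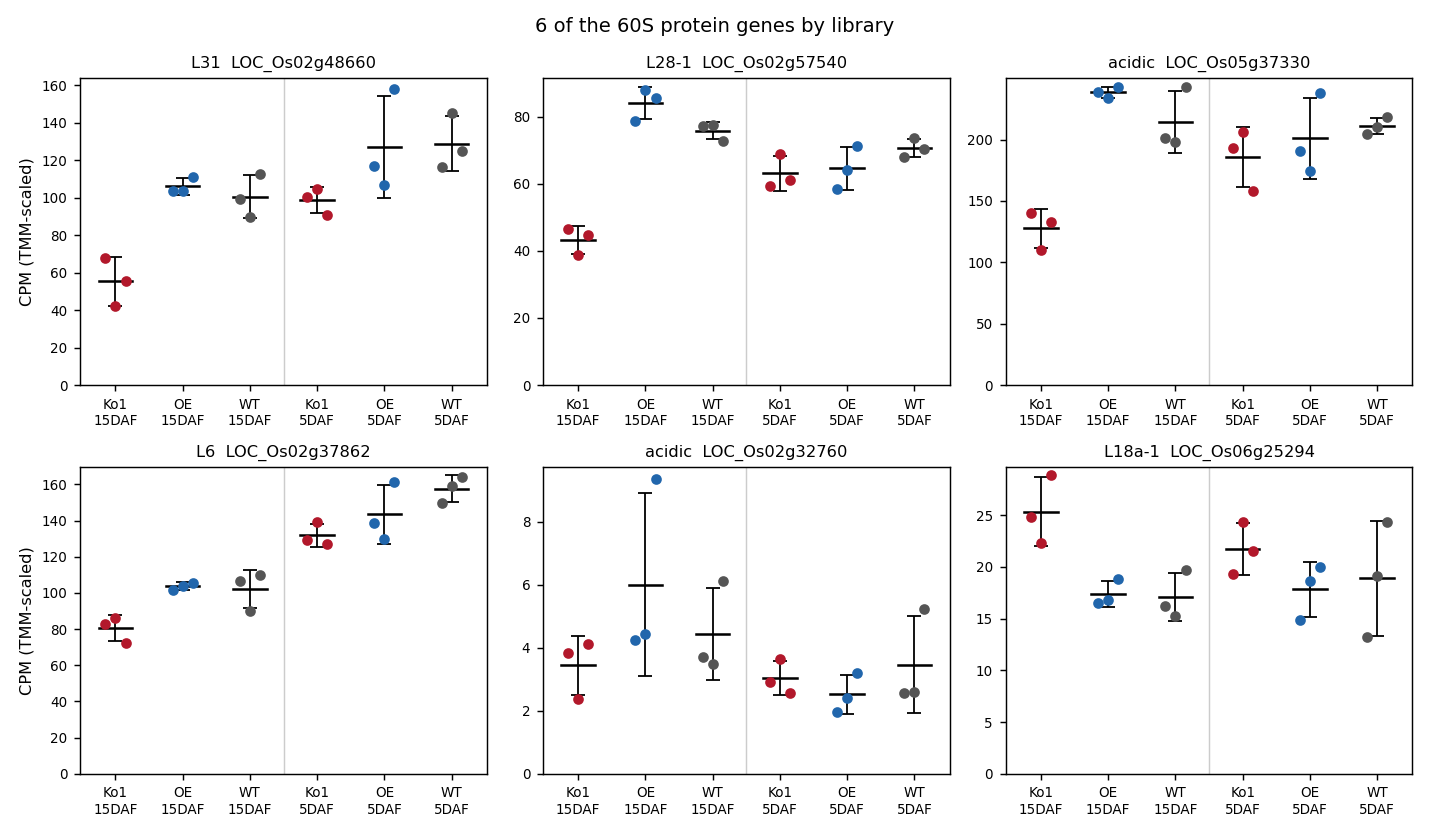
CPM per library (vertical axis) of 6 members, L31 LOC_Os02g48660, L28-1 LOC_Os02g57540, the acidic genes LOC_Os05g37330 and LOC_Os02g32760, L6 LOC_Os02g37862 and L18a-1 LOC_Os06g25294, in Ko1, OE and WT at both stages, with group means. In the first 3 the Ko1 points at 15DAF lie under all others of that stage, in L6 the 15DAF points lie under the 5DAF points of the same genotype, and in L18a-1 the Ko1 points at 15DAF are the highest of that stage.

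Other genes of the translation apparatus were counted in the same fit from lists of description words. In Ko1 leaves at 15DAF, 19 of 54 tested genes for 40S proteins, those of the small subunit, fell and 0 rose, with a median log2 fold change of -0.45. The 40S genes took 0.269 ± 0.0251% of counts in Ko1 and 0.376 ± 0.0216% in WT (SD, n = 3 each). Of 133 tested rows with other ribosomal protein names 35 fell, and of 38 organellar-type ones 2 fell. Those 133 rows are described as ribosomal proteins without the 60S, 40S or organellar words. They may hold further genes of either cytosolic subunit. Ribosome biogenesis genes fell in 6 of 30, translation initiation factors fell in 5 and rose in 2 of 45, and elongation factors fell in 1 of 6. The 60S count stood beside these as 24 of 69, or 34.8%. The mesophyll marker sum at this stage was 23171, 35345 and 13920 CPM in Ko1 and 24609, 21278 and 25941 CPM in WT, so the groups overlapped. Grain markers summed to between 16.4 and 19.9 CPM in Ko1 and between 12.6 and 13.5 CPM in WT, most of it 1 glutelin gene. The 3 proliferating-cell markers summed to between 14.2 and 21.7 CPM in Ko1 and between 13.1 and 15.7 CPM in WT. Their part in the 60S result was not tested.

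At 5DAF, 0 of 69 members passed by edgeR between Ko1 and WT leaves, where 0.00979% of all genes were lower and 0.00489% higher. At an unadjusted p under 0.05, 9 members were lower and 1 higher, and DESeq2 called 2 lower and 0 higher, the L7 genes LOC_Os04g51630 and LOC_Os08g13690. The median log2 fold change was -0.18, and -0.10 without WT 5DAF replicate 3. With all libraries 55 of the 69 lay below 0, as did 10278 of all 20437 genes tested. In 14 members all Ko1 libraries lay below all WT libraries and in 1 above, against 7.38% and 7.1% of all genes.

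The member with the smallest p was LOC_Os04g51630 (L7), with 81.4, 94.5 and 69.3 CPM in Ko1 and 117, 115 and 114 CPM in WT (log2 fold change -0.50, SE 0.13, edgeR adjusted p = 0.118). Its Ko1 libraries lay below WT at both stages. LOC_Os08g13690 (L7) read 137, 152 and 136 CPM in Ko1 and 172, 187 and 175 CPM in WT (log2 fold change -0.33, SE 0.12, edgeR adjusted p = 0.165). The unnumbered 60S gene LOC_Os05g48422 read 21.5, 16.6 and 29.9 CPM in Ko1 and 35.7, 44.1 and 28.6 CPM in WT, where 1 library of each group overlapped (log2 fold change -0.67, SE 0.21, edgeR adjusted p = 0.133). With WT 5DAF replicate 3 left out, edgeR called LOC_Os04g51630 and LOC_Os05g48422 lower (log2 fold change -0.51 and -0.83, adjusted p = 0.0343 and 0.022) and the minor P0 gene LOC_Os11g04070 higher (2.08, adjusted p = 0.0252). That P0 gene read 2.1, 2.65 and 4.2 CPM in Ko1 and 0.552, 0.843 and 2.92 CPM in WT, so its WT values turned on the same library.

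Whether the Ko1 difference changed between the stages was tested directly. No member passed by edgeR, where 0.093% of all genes had a more negative difference at 15DAF and 0.46% a more positive one. At an unadjusted p under 0.05, 9 members were more negative and 0 more positive, and DESeq2 called 1, LOC_Os02g57540 (L28-1). The members' median change was -0.30 on the log2 scale (-0.36 without WT 5DAF replicate 3). The change was -0.65 for LOC_Os02g57540 (SE 0.17, edgeR adjusted p = 0.119), -0.61 for LOC_Os11g05370 (L26-1, adjusted p = 0.302) and -0.67 for LOC_Os02g07890 (L27a-3, adjusted p = 0.352). The 24 calls at 15DAF beside 0 at 5DAF are thus not shown to differ gene by gene at this threshold.

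No member passed between OE and WT leaves at either stage. At 15DAF edgeR called 0 of 69, where 0.0196% of all genes were higher and 0.00489% lower; 0 were past an unadjusted p under 0.05, and DESeq2 called 0. The median log2 fold change was 0.06, and in 7 members all OE libraries lay above WT and in 1 below, against 7.22% and 8.09% of all genes. The members with the smallest p were LOC_Os12g03880 (P0), LOC_Os04g51630 (L7) and LOC_Os03g04750 (L21-2). LOC_Os12g03880 read 18.3, 18.9 and 23.2 CPM in OE and 14.5, 14.4 and 18 CPM in WT (log2 fold change 0.36, SE 0.20, edgeR adjusted p = 1.0). LOC_Os03g04750 read 70.6, 70.2 and 70.8 CPM in OE and 59.5, 57.3 and 69.6 CPM in WT (log2 fold change 0.18, SE 0.14, edgeR adjusted p = 1.0). The median SE over the members was 0.18 on the log2 scale.

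At 5DAF edgeR also called 0 of 69 between OE and WT, where 0.0196% of all genes were higher and 0.0196% lower. At an unadjusted p under 0.05, 1 member was lower and 0 higher, and DESeq2 called 0. The median was -0.04 on the log2 scale (0.05 without WT 5DAF replicate 3), and 4 members had all OE libraries below WT and 0 above, against 4.97% and 3.94% of all genes. The minor P0 gene LOC_Os11g04070 read 0.455, 0.897 and 0.234 CPM in OE and 0.552, 0.843 and 2.92 CPM in WT (log2 fold change -1.43, SE 0.62, edgeR adjusted p = 0.638), and its log2 fold change was -0.38 without WT 5DAF replicate 3. LOC_Os01g24690 (L23a) read 82.3, 34.5 and 42.6 CPM in OE and 77.2, 79.5 and 80.9 CPM in WT (log2 fold change -0.57, SE 0.28, edgeR adjusted p = 0.704), where 1 OE library matched WT and the others held far less. The acidic gene LOC_Os01g13080 had a log2 fold change of -0.41 (edgeR adjusted p = 0.733). The change of the OE difference between the stages passed in 0 members and 0% of all genes by edgeR, with 0 past an unadjusted p under 0.05 and a member median of 0.11, which was -0.008 without WT 5DAF replicate 3.

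**Figure D4:**
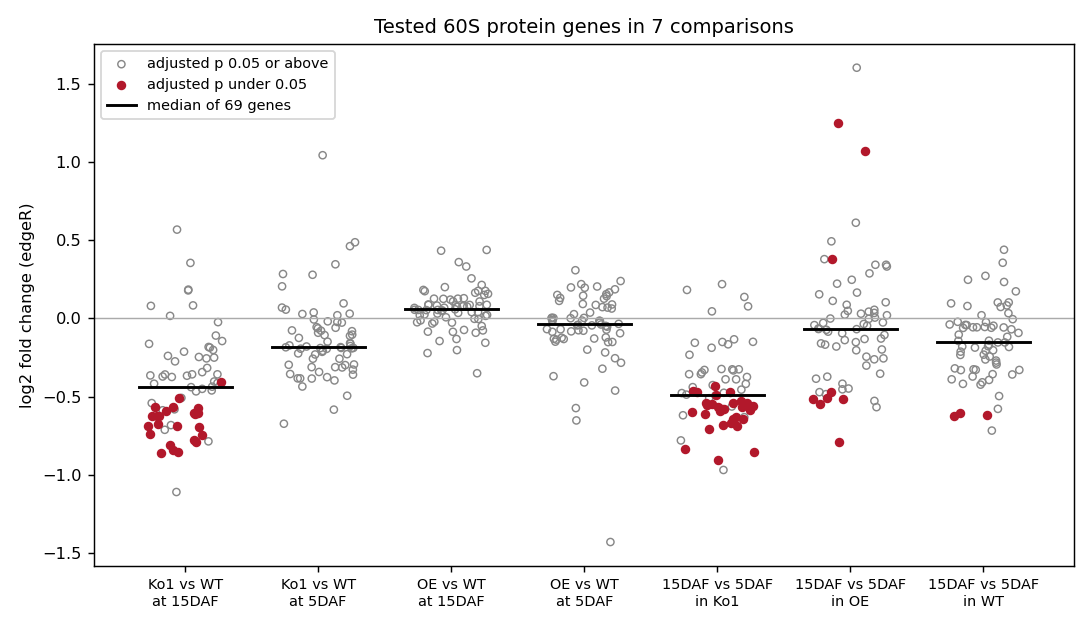
Log2 fold changes of the 69 tested 60S genes in each of 7 comparisons (horizontal positions), one point per gene, with a line at each median; called genes are marked. The medians are -0.44 for Ko1 over WT at 15DAF and -0.49 for 15DAF over 5DAF in Ko1, and lie between -0.18 and 0.06 in the other comparisons.

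With leaf age, few 60S genes were called in WT. Between 15DAF and 5DAF, 3 of 69 fell and 0 rose, where 9.15% of all genes fell and 7.57% rose. The share of members called lower was therefore under that of all genes. Called or not, 55 of the 69 members lay below 0, as did 10613 of all 20437 genes tested. The members' median log2 fold change was -0.15 (-0.105 without WT 5DAF replicate 3), and in 18 members all 15DAF libraries lay below all 5DAF libraries and in 1 above, against 17.3% and 17% of all genes. The 3 were L6, a surface protein of eukaryotic ribosomes, and 2 genes of L34.

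The L6 gene LOC_Os02g37862 read 107, 90.04 and 109.9 CPM at 15DAF, against 149, 159 and 164 CPM at 5DAF in WT (log2 fold change -0.62, SE 0.13, edgeR adjusted p = 0.00238). It fell in the other genotypes too. In Ko1 it read 82.8, 86.4 and 72.4 CPM at 15DAF, against 129, 139 and 127 CPM at 5DAF (log2 fold change -0.71, SE 0.13, edgeR adjusted p = 0.000591), and in OE 101, 104 and 106 CPM at 15DAF, against 139, 130.1 and 162 CPM at 5DAF (log2 fold change -0.47, SE 0.13, edgeR adjusted p = 0.00986). In each genotype all 15DAF libraries lay below all 5DAF libraries, and the call held in each fit that left out a library of the comparison. The OE call was lost with library totals alone (log2 fold change -0.26, edgeR adjusted p = 0.142). The second L6 gene, LOC_Os04g39700, fell in Ko1 (log2 fold change -0.54, SE 0.12, edgeR adjusted p = 0.00312) and had log2 fold changes of -0.001 in OE and -0.21 in WT, which did not pass.

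The L34 gene LOC_Os09g24690 read 46.5, 41.1 and 44.9 CPM at 15DAF, against 57.2, 71 and 75.6 CPM at 5DAF in WT (log2 fold change -0.62, SE 0.18, edgeR adjusted p = 0.0231). LOC_Os08g06040 read 38.3, 31.8 and 35.6 CPM in WT at 15DAF, against 50.3, 47.1 and 63.6 CPM in WT at 5DAF (log2 fold change -0.61, SE 0.18, edgeR adjusted p = 0.0296). Both fell in Ko1 as well, with log2 fold changes of -0.60 and -0.55, while in OE the first passed at -0.51 and the second did not at -0.47. The WT count was small enough for 1 library to set it. It was 1 without WT 5DAF replicate 3 or WT 15DAF replicate 2, 2 without WT 15DAF replicate 1 or 3, and 3 without either other WT 5DAF library. The genes called changed as well. Each L34 call held in 2 of these 6 fits (highest edgeR adjusted p = 0.0917 for LOC_Os09g24690 and 0.12 for LOC_Os08g06040). Without WT 15DAF replicate 3 both were lost and L13a-2 LOC_Os03g54860 was called. Without WT 5DAF replicate 2 LOC_Os09g24690 was lost and L35a-3 LOC_Os05g48220 was called.

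In Ko1 the stage difference was broad. At 15DAF 31 of 69 members were lower than at 5DAF and 0 were higher, where 9.58% of all genes fell and 10.5% rose. The members' share was 44.9%, their median log2 fold change -0.49, and 64 of 69 lay below 0. In 44 members all 15DAF libraries lay below all 5DAF libraries and in 0 above, against 16% and 17.2% of all genes. The 3 Ko1 libraries of 15DAF enter both this comparison and that with WT, so the counts of 31 and 24 are not independent. Testing the Ko1 stage change against that of WT is the same test as that of the Ko1 difference between stages. It called 0 of 69 members by edgeR (smallest adjusted p = 0.119). The stage changes of Ko1 and WT are thus not shown to differ gene by gene at this threshold. Without Ko1 5DAF replicate 2 the count was 17 and without Ko1 15DAF replicate 2 it was 19; without any other single library it was 24 to 33. Of the 31, 16 were called in each of the 6 fits.

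Among the called genes LOC_Os01g24690 (L23a) led by size, with 37.5, 38.3 and 43.7 CPM at 15DAF, against 58.5, 83.7 and 82.2 CPM at 5DAF (log2 fold change -0.91, SE 0.28, edgeR adjusted p = 0.029), but it held its call in 1 of 6 fits. LOC_Os03g40180 (L15) had a larger value that did not pass (log2 fold change -0.97, SE 0.37, edgeR adjusted p = 0.0731). LOC_Os05g28750 (L29-2), a small basic protein, read 15.8, 12.3 and 12.7 CPM at 15DAF, against 22.1, 31.7 and 20.2 CPM at 5DAF (log2 fold change -0.86, SE 0.20, edgeR adjusted p = 0.00605). The L31 gene LOC_Os02g48660 read 67.9, 42.3 and 55.6 CPM at 15DAF, against 100.5, 105 and 90.8 CPM at 5DAF (log2 fold change -0.84, SE 0.18, edgeR adjusted p = 0.00257). Each of these 3 genes was lower at 15DAF in all libraries. LOC_Os02g07890 (L27a-3) read 33.4, 21.8 and 28.7 CPM at 15DAF, against 46.8, 43.6 and 45 CPM at 5DAF (log2 fold change -0.69, SE 0.17, edgeR adjusted p = 0.00738). LOC_Os02g18380 (L27-3) read 88.7, 70.7 and 86.1 CPM at 15DAF, against 134, 135 and 124 CPM at 5DAF (log2 fold change -0.68, SE 0.16, edgeR adjusted p = 0.00457).

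By role, 5 of 9 stalk genes, 4 of 10 genes of the tunnel mouth, 22 of 46 other genes and 0 of 4 L18a-1 genes fell with age in Ko1. The stalk calls were P0 LOC_Os08g03640 (log2 fold change -0.47, SE 0.12, edgeR adjusted p = 0.00928) and the acidic genes LOC_Os01g09510, LOC_Os05g37330, LOC_Os06g48780 and LOC_Os08g02340 (log2 -0.65, -0.54, -0.49 and -0.47). The P0 call held in each of the 6 fits without a library, but the acidic calls held in only 4, 3, 1 and 2 of them. All 5 stalk calls were lost when only the groups compared were fitted. L19-3 LOC_Os03g21940, lower in Ko1 than in WT at 15DAF, did not pass here (log2 fold change -0.36, SE 0.13, edgeR adjusted p = 0.0654); its Ko1 libraries read 207, 213 and 184 CPM at 5DAF. In the other translation lists 28 of 54 genes for 40S proteins fell with age in Ko1, as did 11 of 38 organellar-type rows, where 1 rose. Mesophyll markers summed to between 13920 and 35345 CPM at 15DAF and between 27782 and 32522 CPM at 5DAF in Ko1, and to between 21278 and 25941 CPM at 15DAF and between 29601 and 46594 CPM at 5DAF in WT. Their part in these counts was not tested.

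OE leaves showed a mixed stage difference, with 3 members higher at 15DAF and 6 lower, where 13.1% of all genes rose and 13.6% fell. The median member moved by -0.07 on the log2 scale. This split turned on the scaling: with library totals alone, 8 members were higher and 1 lower, the member median was 0.15 and that of all genes 0.23. In 8 members all 15DAF libraries lay above all 5DAF libraries and in 18 below, against 23.8% and 23.2% of all genes. Of the 9 calls, those of L6 LOC_Os02g37862 and L29-2 LOC_Os05g28750 held in each of the 6 fits without a library, and the count was 3 without OE 15DAF replicate 3, 4 without OE 5DAF replicate 3 and 13 without WT 5DAF replicate 3. It was 5 without OE 15DAF replicate 2 and 6 without OE 15DAF replicate 1.

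The 3 that rose were the acidic stalk gene LOC_Os02g32760 and the L28-1 genes LOC_Os01g51020 and LOC_Os02g57540. LOC_Os02g32760 read 4.23, 4.43 and 9.36 CPM at 15DAF, against 1.97, 2.39 and 3.19 CPM at 5DAF (log2 fold change 1.25, SE 0.40, edgeR adjusted p = 0.0269), and its size turned on OE 15DAF replicate 3, without which it was log2 0.78 and did not pass; it was lost without OE 5DAF replicate 1 or 2 as well. LOC_Os01g51020 read 3.75, 6.8 and 4.96 CPM at 15DAF, against 2.5, 2.47 and 2.42 CPM at 5DAF (log2 fold change 1.07, SE 0.38, edgeR adjusted p = 0.0466). LOC_Os02g57540 read 78.8, 88 and 85.6 CPM at 15DAF, against 58.5, 64.1 and 71.4 CPM at 5DAF (log2 fold change 0.38, SE 0.12, edgeR adjusted p = 0.0235). All 3 were higher at 15DAF in every library, at low levels in the first 2. The call held in 1 of 6 fits without a library for LOC_Os01g51020 and in 2 of 6 for LOC_Os02g57540.

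The 6 that fell in OE were L6 LOC_Os02g37862, L7 LOC_Os08g42920, L29-2 LOC_Os05g28750, L34 LOC_Os08g33920 and LOC_Os09g24690, and L35a-3 LOC_Os05g48220. LOC_Os05g28750 had the largest difference, with 20.02, 19.4 and 19.5 CPM at 15DAF, against 32.5, 27.7 and 42 CPM at 5DAF (log2 fold change -0.79, SE 0.20, edgeR adjusted p = 0.00709). LOC_Os08g42920 read 23.6, 26.2 and 23.9 CPM at 15DAF, against 31.8, 32 and 44.1 CPM at 5DAF (log2 fold change -0.55, SE 0.17, edgeR adjusted p = 0.0207). No overlap was seen in either gene. As a family, the 9 stalk genes had a median of 0.34 in OE, with 7 above 0, against -0.47 in Ko1, with 8 below 0. Mesophyll markers in OE summed to between 19271 and 20119 CPM at 15DAF and between 42285 and 45199 CPM at 5DAF, and their part in these counts was not tested.

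The stage changes of Ko1 and OE were then tested against each other, a comparison chosen after both had been seen. It called 1 member, lower in Ko1, and 0 higher, where 0.152% of all genes were lower and 0.445% higher. The member median was -0.39 on the log2 scale, and 65 of 69 lay below 0, the 9 stalk genes among them. The gene called was LOC_Os02g57540 (L28-1), whose log2 stage change was -0.55 in Ko1 and 0.38 in OE, a difference of -0.93 (SE 0.17, edgeR adjusted p = 0.0163). In WT its stage change was 0.10 (edgeR adjusted p = 0.622). Means were 43.3 ± 4.12 CPM at 15DAF, against 63.1 ± 5.15 CPM at 5DAF in Ko1, and 84.1 ± 4.75 CPM at 15DAF, against 64.7 ± 6.44 CPM at 5DAF in OE (SD, n = 3 each). It held in 9 of 13 fits that left out 1 library and was lost without Ko1 5DAF replicate 2, OE 15DAF replicate 2 or 3, or OE 5DAF replicate 1, with a largest adjusted p = 0.0635 by edgeR. DESeq2 called 7 members in this comparison, 0 of them higher. The acidic genes LOC_Os06g48780 and LOC_Os05g37330 differed by -0.84 and -0.79 and passed by DESeq2 (adjusted p = 0.0169 and 0.00997) but not by edgeR (adjusted p = 0.107 and 0.122).

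Most of these proteins have several genes, and the relative use of members with the same label was compared per length. Any genes of the same protein described in other words or under another label are not counted. For 21 labels with 2 or more tested copies, 54 genes in all, the leading copy held between 40.1 and 92.6% of the label's summed FPKM. It held over 75% in 4 of them: P0 (LOC_Os08g03640, 92.6%), L39 (LOC_Os06g08320, 90.5%), L28-1 (LOC_Os02g57540, 88.7%) and L23a (LOC_Os04g42270, 76.3%). No copy moved by over 20 percentage points between a line and WT at the same stage or between the stages of a genotype. The largest of those moves was 9.50 points, for LOC_Os04g42270 (L23a), which held 80.4 ± 1.82% at 15DAF and 70.9 ± 3.87% at 5DAF in Ko1 (SD, n = 3 each). The L15 copies stood further apart between the lines, since LOC_Os03g40180 held 45.0 ± 9.81% in Ko1 and 60.5 ± 1.01% in OE at 15DAF (SD, n = 3 each), and LOC_Os05g19370 was the larger copy in that Ko1 group with 55.0%.

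**Figure D5:**
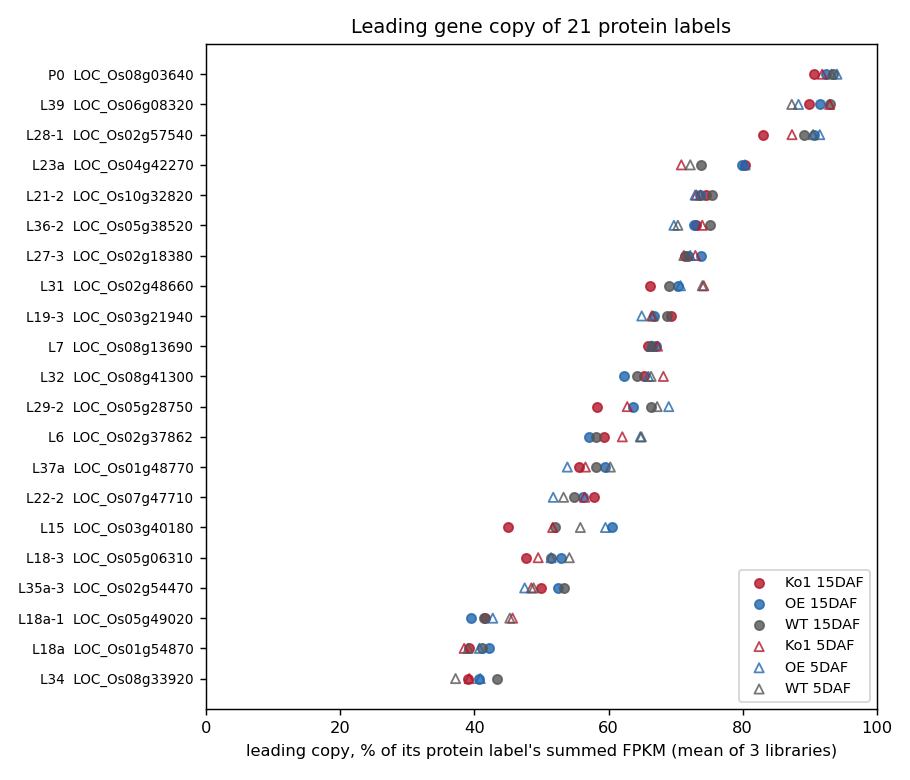
Share of the summed FPKM of each protein label (percent, horizontal axis) held by its leading gene copy, for the 21 labels with at least 2 tested copies, with 1 mark per group of libraries. The marks of L15 run from 45.0 to 60.5%, and P0, L39, L28-1 and L23a have leading copies above 75%.

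The copies nevertheless differed in how far they were apart between Ko1 and WT at 15DAF. The widest gaps were in L28-1, P0, L23a and L39. In L28-1 the log2 fold changes were -0.81 for LOC_Os02g57540, -0.68 for LOC_Os05g46430 and 0.18 for LOC_Os01g51020. The leading copy's share of the L28-1 FPKM was 83% in Ko1 and 89.2% in WT. In P0 the leading copy had -0.59, LOC_Os12g03880 had -0.02 and LOC_Os11g04070 had 0.02. In both labels the leading copy was the one that passed, while differences between copies were not tested. L31 was the opposite case, with -0.86, -0.84 and -0.62 for LOC_Os02g48660, LOC_Os06g21480 and LOC_Os08g39500, all called, although the calls of LOC_Os06g21480 and LOC_Os08g39500 each held in only 1 of the 6 fits without a library.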

How the data were processed

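Per the file headers, the deposited table gives for each library unscaled gene counts and, beside them, FPKM values, which the authors divided by gene length and library total. The lengths that the 2 units imply, checked in 14683 genes of over 20 counts, varied among libraries by a factor of at most 1.00004. The submitters' processing notes name Bowtie 0.12.2 and the build mm8, a mouse genome, although the table lists rice loci. The sources used here do not name the rice build, annotation, counting tool or strand setting. Counts of 20437 of 55986 loci passed filterByExpr, and the rest were not tested.

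The test was edgeR 4.0.16 (R 4.3.3), a quasi-likelihood fit of 6 group means over 18 libraries with TMM scaling (factors 0.866 to 1.08), two-sided, with Benjamini-Hochberg adjustment over every gene tested. It compared both lines with WT within a stage, the stages within a genotype, the changes of both genotype differences between stages, and the Ko1 with the OE stage changes, the last added after their values were seen. The scripts were tested on simulated counts of the same design, with genes other than the members changed in Ko1 at 15DAF. For Ko1 over WT, 30.9% of 97 planted changes of log2 1 and 77% of 100 of log2 2 were recovered. In the same comparison 9 unchanged genes were called. CPM use TMM-scaled library sizes and errors are SDs over 3 libraries unless called SE.

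Genes named are all stalk members, up to 6 called members per direction and comparison without overlap (or the 3 of lowest p where fewer than 3 were called), the 5 highest and 3 lowest by FPKM, the labels whose copies differ most, and copies whose share moves by over 20 points. Other members were named after their values were seen. The members and all lists were chosen with earlier results of these data known. Alternatives were DESeq2 1.42.0, RLE size factors, library totals alone, TMM without ribosomal protein rows, a block for the replicate number, no filter on low counts, a stricter threshold of 0.01, only the groups compared, strict descriptions, and fits without 1 or 2 libraries. Sequences and promoter motifs were not analysed here.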

Additional observations from a re-analysis of the deposited data

Results flagged for a closer look

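One result was flagged because the same contrast went in opposite directions in 2 lines. The L28-1 gene LOC_Os02g57540 fell between 5DAF and 15DAF in Ko1 leaves (log2 fold change of 15DAF over 5DAF -0.55, edgeR adjusted p = 0.00324) and rose in OE leaves (0.38, edgeR adjusted p = 0.0235). The test of the difference itself gave -0.925 on the log2 scale (SE 0.17, edgeR adjusted p = 0.0163). Among 13 fits that left out 1 library each, the difference ranged from -1.002 to -0.829 and passed in 9. It did not pass without Ko1 5DAF replicate 2, OE 5DAF replicate 1, OE 15DAF replicate 2 or OE 15DAF replicate 3 (highest edgeR adjusted p = 0.0635). The rise in OE did not pass without OE 15DAF replicate 2, OE 15DAF replicate 3, OE 5DAF replicate 1 or OE 5DAF replicate 2 (highest edgeR adjusted p = 0.142). Mesophyll markers summed to between 13920 and 35345 CPM at 15DAF and between 27782 and 32522 CPM at 5DAF in Ko1, and between 19271 and 20119 CPM at 15DAF and between 42285 and 45199 CPM at 5DAF in OE. Their part in the result was not tested.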

How the results depend on the processing

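Counts of called members within 1.5 times those reported were obtained under every alternative not named here, and no called member changed sign under any. The member median between stages in OE did turn, to 0.15 with library totals alone, where the calls were 8 higher and 1 lower, and to 0.056 without OE 5DAF replicate 3; the ratio of summed levels in OE became 0.944 on TMM-scaled CPM. DESeq2 called 6 members between stages in WT, against 3 by edgeR, 2 for Ko1 over WT at 5DAF, against 0, 1 for the change of the Ko1 difference between stages, against 0, and 7 for the Ko1 stage change against that of OE, against 1. An adjusted p under 0.01 left 10 members for Ko1 over WT at 15DAF, 16 between stages in Ko1, 2 in OE and 1 in WT, and 0 for the Ko1 against the OE stage change. Fitting the groups compared alone left 16 between stages in Ko1. Scaling by library totals alone gave 1 between stages in WT and 2 for the Ko1 against the OE stage change; it moved the median of all genes to 0.106 for Ko1 over WT at 5DAF, to 0.128 for the change of the OE difference and to -0.194 for the Ko1 against the OE stage change. Without a low-count filter 5 passed between stages in OE. Without WT 5DAF replicate 3 and Ko1 5DAF replicate 3 together, 34 passed for Ko1 over WT at 15DAF (1 higher, 33 lower), 2 for Ko1 over WT at 5DAF and 1 between stages in WT. The cause of these shifts was not tested. The share of all genes called under each alternative is not set beside these counts. Leaving out 1 library at a time gave 9 to 29 members for Ko1 over WT at 15DAF, 0 to 3 at 5DAF, 17 to 33 between stages in Ko1, 3 to 13 in OE and 1 to 3 in WT, and 0 to 1 for the Ko1 against the OE stage change. Replicate numbers were not treated as pairs. Over 45 same-number pairs the correlation of deviations ran from -0.205 to 0.251, and 5 were over 0.1. The median was 0.022, against -0.023 for pairs with different numbers. Such correlations cannot show whether samples were paired. With a replicate block, 24 members passed for Ko1 over WT at 15DAF (23 lower and 1 higher, LOC_Os06g25294 with edgeR adjusted p = 0.0399), 20 of them called without it, 32 between stages in Ko1, 8 in OE and 4 in WT. The planned promoter motif description was not run, since no sequence was at hand. At this depth the members' median SE of 0.18 limits what single genes can show, most of all for those of a few CPM.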

Other observations

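Genes for proteins of organellar ribosomes were counted over the same stages. Between 15DAF and 5DAF, 12 of 38 tested rows described as organellar-type fell in OE leaves and 1 rose, with a median log2 fold change of -0.68, while 11 fell and 1 rose in Ko1 and 9 fell in WT. Among the 60S genes 6 of 69 members fell in OE, 31 in Ko1 and 3 in WT. The differences between these lists were not tested. Genes for 40S proteins fell in 4 of 54 in OE, 28 in Ko1 and 3 in WT, and ribosome biogenesis genes fell in 2 of 30 in OE, where 3 rose, 6 in Ko1 and 2 in WT. Of all genes tested, 13.6% fell and 13.1% rose in OE, 9.58% and 10.5% in Ko1, and 9.15% and 7.57% in WT. The shares of 60S genes that fell in OE (8.7%) and WT (4.35%) lay under these. So did those of 40S genes (7.41% and 5.56%), whereas in Ko1 the 60S (44.9%) and 40S (51.9%) shares lay above.

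The 4 L18a-1 genes were also on the higher side in Ko1 leaves at 5DAF. They were picked out after their values were seen, so this is not a separate check. Their log2 fold changes of Ko1 over WT were 0.46, 0.28, 0.35 and 0.21 there, and none passed (smallest edgeR adjusted p = 0.242). Without WT 5DAF replicate 3 they were 0.995, 0.39, 0.47 and 0.43, and none passed either (smallest edgeR adjusted p = 0.0724). Without WT 5DAF replicate 3 and Ko1 5DAF replicate 3 together, LOC_Os01g14070 passed (log2 fold change 1.328, edgeR adjusted p = 0.0352). LOC_Os05g49020 read 35.8, 40.6 and 41.6 CPM in Ko1 and 29.5, 26.8 and 36.5 CPM in WT at 5DAF, and 33.2, 29.3 and 44.9 CPM in Ko1 and 29, 26.6 and 28.5 CPM in WT at 15DAF, so that at 15DAF all Ko1 libraries lay above all WT libraries.

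The loci described as mitochondrial 60S proteins had few counts, unevenly spread. LOC_Os09g08890 (L5) had 0, 0 and 22 counts in Ko1 and 1, 5 and 0 in WT at 5DAF, and 5, 3 and 4 in Ko1 and 0, 1 and 1 in WT at 15DAF. LOC_Os12g34128 (L16) had 5, 0 and 11 counts in Ko1 and 0 in each WT library at 5DAF, and 0, 3 and 6 in Ko1 and 2, 0 and 0 in WT at 15DAF.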
